A study of Mus musculus with 15 samples.

Results

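A set of 9 genes that mark astrocytes, or that astrocytes raise when they become reactive, was followed through RNA-seq of PDGFRbeta-positive cells isolated from the brains of mice injured as neonates. They are Gfap, Vim, Aqp4, Aldh1l1, Slc1a2, Slc1a3, Gja1, S100b and Aldoc. The genes were found by their Entrez gene number among the 17892 lines of the deposited count table that held values, and 9 of 9 had values in every library and passed the filter on low counts. The 15 libraries fall into 4 groups defined by genotype and treatment: 4 libraries of miR-210 knockout (KO) cells after hypoxia-ischemia (HI), 4 of KO cells after sham treatment, 4 of wild-type (WT) cells after HI and 3 of WT cells after sham treatment. HI is a brain injury made by cutting blood and oxygen supply, and the cells were collected 24 h after it. PDGFRbeta is a receptor for platelet-derived growth factor found on the mural cells of brain vessels and on brain fibroblasts. The labels give neither the strain nor the age in days, and leave it unsaid whether each replicate is its own animal, so p-values measure the spread between these samples only.

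Astrocytes are the glial cells whose endfeet cover brain capillaries, the vessels on which pericytes sit. In the resting brain they clear glutamate and potassium, move water and couple to each other through gap junctions. After injury they become reactive, and the classic sign is a rise of GFAP, an intermediate filament protein found in few other brain cells. Vimentin, a second intermediate filament protein of reactive astrocytes, is also made in quantity by endothelial cells, pericytes, fibroblasts and microglia, and connexin 43 (Gja1) by several cells of vessels and meninges. PDGFRbeta is not a marker of astrocytes. Whether the 9 transcripts came from astrocytes collected with the isolated cells or from the isolated cells themselves cannot be told apart in these data.

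The mature sequence of the deleted microRNA is shown because the KO and WT groups differ by it; its seed, bases 2 to 8, is in capitals, and the RNA is given as in RefSeq (GRCm38.p6).
mmu-miR-210-3p: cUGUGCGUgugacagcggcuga
The 7-base match to this seed, ACGCACA, was present in the longest annotated 3′ untranslated region of 0 of the 9 genes, against 3.68% of the 14496 tested genes with such a region (534 genes). The 250 bases before the annotated start are shown for Gfap and Vim, the filament genes on which the results below turn. They are credited to RefSeq with the build GRCm38.p6, which is older than the authors' build, and each runs 5′ to 3′ on the gene's own strand. Capitals mark a TATA box (TATAAA), which was searched on both strands.
Gfap, chr11:102897201-102897450, minus strand: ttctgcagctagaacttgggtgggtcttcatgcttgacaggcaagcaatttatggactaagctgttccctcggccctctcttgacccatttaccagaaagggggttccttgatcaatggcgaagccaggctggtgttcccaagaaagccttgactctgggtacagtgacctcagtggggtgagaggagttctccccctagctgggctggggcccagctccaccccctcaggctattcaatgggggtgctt
Vim, chr2:13574061-13574310, plus strand: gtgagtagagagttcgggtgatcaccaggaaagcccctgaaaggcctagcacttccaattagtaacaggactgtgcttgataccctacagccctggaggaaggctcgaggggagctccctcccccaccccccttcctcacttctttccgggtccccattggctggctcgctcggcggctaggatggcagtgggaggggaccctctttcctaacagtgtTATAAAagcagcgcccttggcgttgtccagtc
The Vim window held TATAAA at -32 to -27 from the start, as did 6.82% of 15085 promoters of tested genes anywhere in their window. Neither window held the STAT element TTCNNNGAA or the AP-1 element TGANTCA, both searched on both strands. Those were in 5.98% and 4.67% of the same promoters, and among the 9 windows of 8 members (2 for Aldoc; Aqp4 not among them) the STAT element was in 2, of Aldoc and Slc1a3, and the AP-1 element in 1, of Gja1. A match of letters is a description and not a bound site.

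Total expected counts ran from 15436376 to 18118697 per library, so depth differed little. Levels are given as CPM, the usual depth-scaled counts, computed on library sizes normalized by edgeR. Pdgfrb, the receptor used to isolate the cells, was between 194 and 596 CPM in KO HI libraries, 251 and 785 CPM in KO sham, 751 and 1049 CPM in WT HI and 688 and 987 CPM in WT sham. The line of the deleted gene, Mir210, held no value, so the knockout could not be checked there. There were 5 libraries that stood apart by the mean log2 CPM of 14 neuron markers: KO HI 2 at 4.03, KO HI 3 at 5.91, KO sham 1 at 6.59, KO sham 3 at 4.20 and WT sham 2 at 3.11. The other 10 libraries were between 0.48 and 2.12. Of these 5 libraries 4 are KO and none is WT HI, and the comparisons of the 9 genes and the calls in most of the further lists are also given without them. That fit keeps only KO HI 1 and 4, KO sham 4 and 6 and WT sham 1 and 3, beside all WT HI libraries. Its calls and standard errors therefore rest on few libraries per group. The labels name no batch.

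All 9 transcripts were well detected, and they ranged very differently over the libraries. Per kilobase of the longest annotated transcript, the median level over the 15 libraries was highest for Vim at 689 CPM per kb, followed by Gja1 at 78.5, Gfap at 65.7 and Slc1a3 at 51.9 CPM per kb. Aldoc at 19.8, Slc1a2 at 9.88, Aqp4 at 6.60, S100b at 4.39 and Aldh1l1 at 3.47 CPM per kb were lower. With the shortest annotated transcript Slc1a3 would be at 297, Slc1a2 at 58.6 and Aqp4 at 30.1 CPM per kb, so the order of these 3 depends on which transcript is present. The highest library exceeded the lowest by 129-fold in CPM for Slc1a2, 99.5-fold for Aldoc, 83.4-fold for S100b, 70.9-fold for Gfap, 62.8-fold for Aldh1l1 and 30.7-fold for Aqp4. Slc1a3 ranged 11.8-fold, Gja1 4.38-fold and Vim 4.01-fold.

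**Figure D1:**
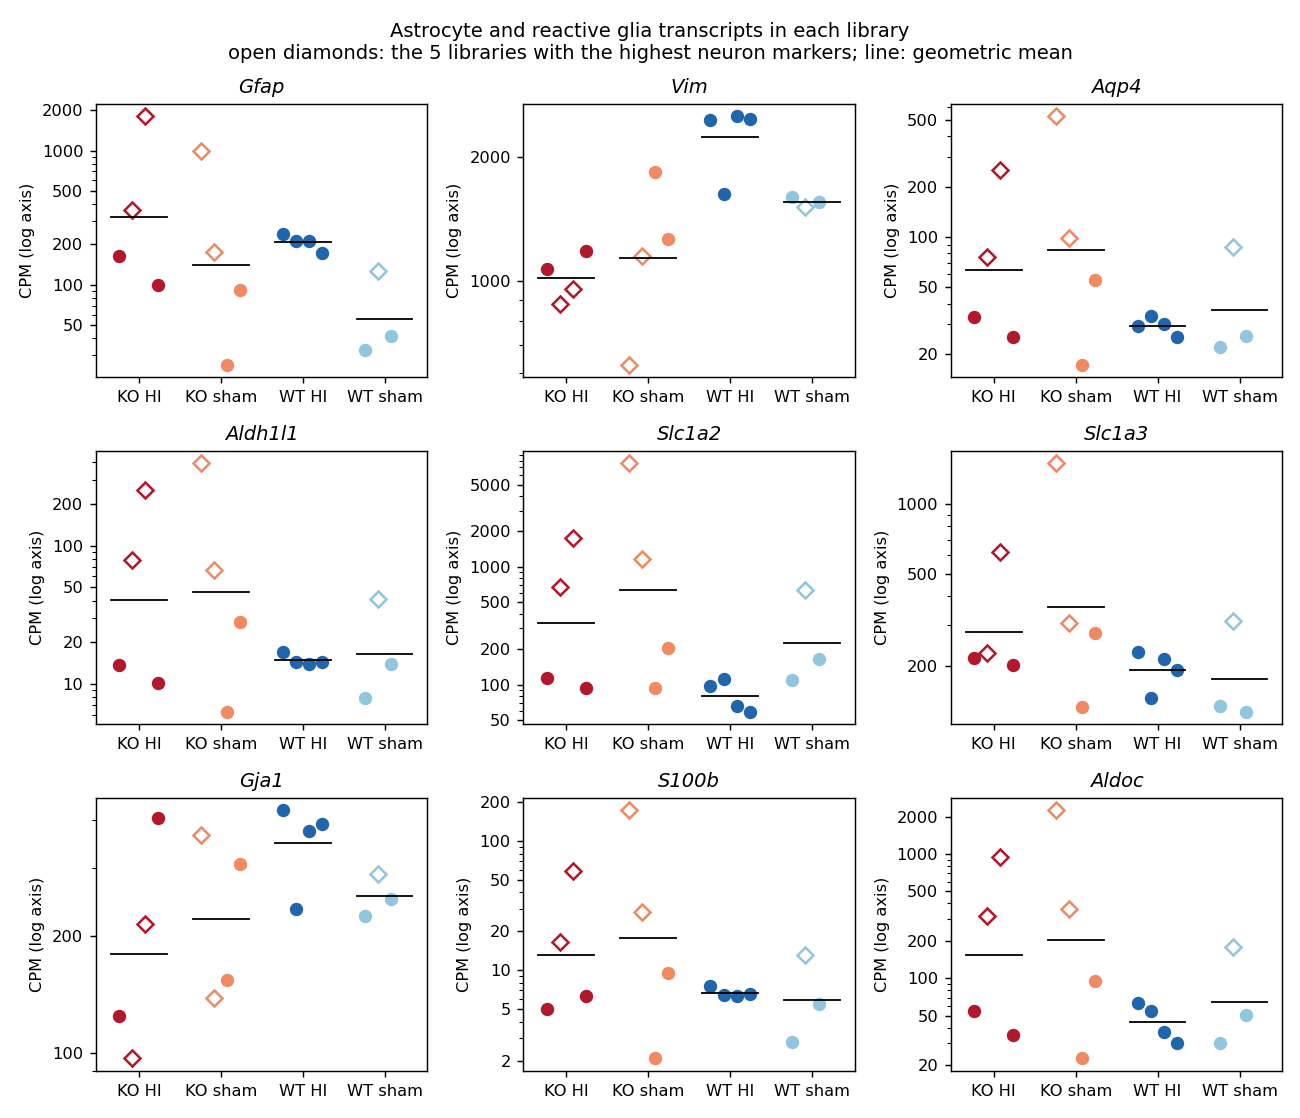
Level of each of the 9 genes in CPM on a log axis, 1 panel per gene, with 1 symbol per library (KO HI, KO sham and WT HI 4 libraries each, WT sham 3). Open diamonds are the 5 libraries with the highest neuron markers and lines are geometric means; the diamonds are the 5 highest symbols for Aqp4, Aldh1l1, Slc1a2, S100b and Aldoc, and none of them is among the 5 highest for Vim.

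Gfap (Gene ID 14580), the filament protein of astrocytes, was higher in every WT HI library than in any WT sham library, and its level relative to Aqp4 separated HI from sham in both genotypes. In KO cells Gfap was at 165, 363, 1807 and 99.6 CPM in HI libraries 1, 2, 3 and 4, against 987, 176, 25.5 and 91.0 CPM in sham libraries 1, 3, 4 and 6. In WT cells it was at 241, 212, 211 and 174 CPM in HI libraries 1, 2, 4 and 5, against 32.9, 127 and 41.8 CPM in sham libraries 1, 2 and 3. The WT groups did not overlap, while in KO the 2 groups overlapped and each held 1 library far above its others, HI 3 and sham 1. On the log2 scale Gfap differed by 1.64 ± 1.15 (SE) between HI and sham in WT (edgeR adjusted p = 0.645) and by 0.93 ± 1.02 in KO (edgeR adjusted p = 0.677). Fitted on the WT libraries alone it was called at 1.63 ± 0.45 (edgeR adjusted p = 0.0435), where 17.1% of genes were called. Non-overlap in that direction was seen for 15.9% of all 14853 tested genes in WT, so by itself it is not rare. Between genotypes it differed by 1.54 ± 1.03 after HI and by 2.25 ± 1.18 in sham, KO over WT (edgeR adjusted p = 0.314 and 0.477).

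Vim (Gene ID 22352), vimentin, was lower in KO than in WT cells after HI, and this was the only called difference among the 9 genes. In KO cells Vim was at 1069, 881, 960 and 1182 CPM in HI libraries 1 to 4, against 628, 1153, 1842 and 1266 CPM in sham libraries 1, 3, 4 and 6. In WT cells it was at 2459, 1626, 2514 and 2470.3 CPM in HI libraries 1, 2, 4 and 5, against 1597, 1511 and 1554 CPM in sham. Every KO HI library was below every WT HI library, the WT HI libraries were all above WT sham, and the KO sham libraries spread across both sides of WT sham. After HI, Vim fell by 1.15 ± 0.26 log2 units in KO against WT (the log2 fold change was -1.15; edgeR adjusted p = 0.0153), a fold of 0.451. Of all tested genes 12.4% were called in this comparison and 6.46% were called lower, and in 11.5% the KO values lay wholly below the WT values, so Vim was 1 of many. HI over sham gave 0.54 ± 0.28 in WT and -0.26 ± 0.25 in KO (edgeR adjusted p = 0.451 and 0.635). The difference between these responses was -0.80 ± 0.38 (edgeR adjusted p = 0.932).

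The call for Vim held in 12 of 15 fits with 1 library left out, at log2 fold changes of -1.28 to -1.08 over the 15. It was lost when WT HI 1, 4 or 5 was left out (edgeR adjusted p = 0.0528, 0.0506 and 0.0507), with log2 fold changes of -1.11, -1.10 and -1.12. It held without the 5 libraries with high neuron markers, at -1.03 ± 0.22 (edgeR adjusted p = 0.0129), where 23.5% of all genes were called. Among other cells that make vimentin, markers of pericytes and endothelial cells were lower in KO after HI in part and those of microglia were higher. The summed level of 10 pericyte markers was 1588 to 5519 CPM in KO HI against 5639 to 7953 CPM in WT HI, and that of 8 endothelial markers 1794 to 3855 CPM in KO HI against 5512 to 7093 CPM in WT HI. The sum of 8 fibroblast markers was 967 to 4173 CPM in KO HI against 2942 to 5621 CPM in WT HI, and that of 10 microglia markers 6175 to 13168 CPM in KO HI against 1808 to 4821 CPM in WT HI. Of these lists, 3 of 10 pericyte, 4 of 8 endothelial and 0 of 8 fibroblast markers were called lower in KO and 10 of 10 microglia markers higher, against 6.46% of all genes called lower and 5.96% called higher. Without the 5 libraries with high neuron markers, only KO HI 1 and 4 were compared with WT HI. There 4 of 10 pericyte, 7 of 8 endothelial and 0 of 8 fibroblast markers were called lower. All 10 of 10 microglia markers were higher in that fit, where 23.5% of all genes were called. The part of these cells in the lower Vim level was not tested. In such bulk libraries fewer cells of a type and less RNA per cell cannot be told apart.

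Aqp4 (Gene ID 11829), the water channel of astrocyte endfeet, separated libraries rather than groups. In KO cells it was at 33.3, 75.9, 252 and 25.2 CPM in HI libraries 1 to 4, against 529, 98.8, 17.3 and 55.1 CPM in sham libraries 1, 3, 4 and 6. In WT cells it was at 29.4, 33.8, 30.4 and 25.2 CPM in HI libraries 1, 2, 4 and 5, against 22.0, 87.0 and 25.7 CPM in sham. The WT HI libraries were alike and lay within the range of WT sham, and the 5 highest values over the whole series were those of KO sham 1, KO HI 3, KO sham 3, WT sham 2 and KO HI 2. No comparison was called, with log2 fold changes of -0.86 ± 0.92 for HI over sham in KO and -0.60 ± 0.99 in WT.

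Aldh1l1 (Gene ID 107747), an enzyme of folate metabolism used as a general astrocyte marker, followed the same libraries. It was at 13.6, 78.9, 252 and 10.2 CPM in KO HI libraries 1 to 4 against 396, 67.0, 6.31 and 28.0 CPM in KO sham libraries 1, 3, 4 and 6. In WT it was at 17.1, 14.5, 14.0 and 14.5 CPM in HI libraries 1, 2, 4 and 5 against 7.89, 41.1 and 13.8 CPM in sham. WT HI values were within 1.22-fold of each other, and HI and sham overlapped in both genotypes.

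S100b (Gene ID 20203), a calcium-binding protein of astrocytes and of part of the oligodendrocyte lineage, was the member with the lowest CPM. It was at 5.03, 16.5, 58.4 and 6.37 CPM in KO HI libraries 1 to 4 against 174, 28.3, 2.08 and 9.60 CPM in KO sham libraries 1, 3, 4 and 6. In WT it was at 7.54, 6.44, 6.31 and 6.51 CPM in HI libraries 1, 2, 4 and 5 against 2.80, 13.2 and 5.53 CPM in sham. Again the groups overlapped, and KO sham held both the highest and the lowest library.

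Aldoc (Gene ID 11676), the brain form of the glycolytic enzyme aldolase, showed the same order. It was at 55.1, 318, 948 and 35.1 CPM in KO HI libraries 1 to 4 against 2259, 362, 22.7 and 94.6 CPM in KO sham libraries 1, 3, 4 and 6. In WT it was at 63.7, 54.3, 37.0 and 30.4 CPM in HI libraries 1, 2, 4 and 5 against 30.1, 180.0 and 50.8 CPM in sham. Its family member Aldoa, the aldolase of most tissues, varied far less, with means of 719 ± 120 CPM in KO HI, 510.0 ± 162 CPM in KO sham, 513 ± 31.1 CPM in WT HI and 402 ± 41.1 CPM in WT sham (SD, n = 4, 4, 4 and 3).

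The glutamate transporters differed from each other in how far they moved between libraries. Slc1a2 (Gene ID 20511), GLT-1, the main glutamate transporter of mature astrocytes, was at 115, 669.9, 1773 and 93.1 CPM in KO HI libraries 1 to 4 against 7627, 1172, 93.1 and 204 CPM in KO sham libraries 1, 3, 4 and 6. In WT it was at 97.6, 112, 65.1 and 58.9 CPM in HI libraries 1, 2, 4 and 5 against 110.2, 634 and 165 CPM in sham. In WT the highest HI library lay just above the lowest sham library, so the groups overlapped by 1 value, and the log2 fold change of HI over sham was -1.86 ± 1.29 (edgeR adjusted p = 0.637). In KO it was -1.78 ± 1.22 (edgeR adjusted p = 0.450).

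Slc1a3 (Gene ID 20512), GLAST, the transporter prominent in immature astrocytes and radial glia, was at 216, 227, 622 and 203 CPM in KO HI libraries 1 to 4 against 1503, 306, 133 and 276 CPM in KO sham libraries 1, 3, 4 and 6. In WT it was at 229, 146, 215 and 193 CPM in HI libraries 1, 2, 4 and 5 against 135, 313 and 127 CPM in sham. Outside KO HI 3 and KO sham 1 it stayed between 127 and 313 CPM. The count of Slc1a2 per count of Slc1a3 averaged 0.451 ± 0.219 in WT HI and 1.38 ± 0.609 in WT sham (SD, n = 4 and 3). These WT ratios did not overlap, at 0.303 to 0.768 after HI against 0.819 to 2.03 in sham, whereas in KO they did, at 0.459 to 2.96 after HI against 0.698 to 5.07 in sham. The WT margin was narrow, between 0.768 and 0.819. The share of other gene pairs whose ratios do not overlap was not computed, so this is a description only.

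Gja1 (Gene ID 14609), connexin 43, the main gap junction protein of astrocytes, did not follow the other astrocyte markers. It was at 125, 96.9, 216 and 404 CPM in KO HI libraries 1 to 4 against 365, 139, 154 and 308 CPM in KO sham libraries 1, 3, 4 and 6. In WT it was at 424, 236, 375 and 391 CPM in HI libraries 1, 2, 4 and 5 against 226, 290.2 and 249.7 CPM in sham. In all, 3 of 4 WT HI libraries were above every WT sham library and 3 of 4 KO HI libraries below every WT HI library, with KO HI 4 as the exception. KO over WT after HI gave -0.76 ± 0.42 (edgeR adjusted p = 0.229). Without KO HI 4, the library just named, it was -1.31 ± 0.37 (edgeR adjusted p = 0.0317), where 18.3% of all genes were called. That was the 1 call in 15 fits with 1 library left out, and 0 of 10 other settings called it.

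Set side by side, the group comparisons called few of the 9 genes. For HI over sham, 0 of 9 were called in KO, where 7.01% of all tested genes were called, and 0 of 9 in WT, where 1.82% were. At an unadjusted p under 0.05 edgeR also found 0 of 9 in KO (22% of all genes) and 0 of 9 in WT (12.8%). DESeq2 and limma called 0 of 9 in both, where DESeq2 called 13% of all genes in KO and 5.26% in WT. For KO over WT, 1 of 9 was called after HI, against 12.4% of all genes, and 0 of 9 in sham, against 0.0135%. At an unadjusted p under 0.05 there were 4 of 9 after HI (Vim lower, Slc1a2, Aldoc and Aldh1l1 higher in KO), against 31.2% of all genes, and 1 of 9 in sham (S100b, higher in KO), against 8.56%. DESeq2 also called Slc1a2 higher in KO after HI, with 22.9% of all genes called. The difference of the HI responses gave 0 of 9 and 0 of all genes (0%), with 768 genes (5.17%) at an unadjusted p under 0.05 by edgeR and 22 genes (0.148%) called by DESeq2. In sham, 7 of 9 members had a positive log2 fold change of KO over WT, with a median of 2.25 against 0.05 for all tested genes. After HI, 7 of 9 were positive with a median of 1.68 against 0.06. The largest values in sham were those of Aldoc at 2.98 ± 1.44, Slc1a2 at 2.91 ± 1.43, S100b at 2.89 ± 1.26 and Aldh1l1 at 2.57 ± 1.31, each with overlapping groups. The 2 genotype comparisons use different libraries, but both include libraries with high neuron markers. In sham these were KO sham 1 and 3 and WT sham 2. After HI they were KO HI 2 and 3, and none was WT HI. Without those 5 libraries KO over WT in sham was 0.53 ± 0.61 for Aldoc, 0.10 ± 0.41 for Slc1a2, 0.48 ± 0.59 for S100b, 0.65 ± 0.56 for Aldh1l1, 0.59 ± 0.43 for Aqp4, 0.64 ± 0.31 for Slc1a3, 0.63 ± 0.49 for Gfap, -0.05 ± 0.52 for Gja1 and -0.03 ± 0.24 for Vim. After HI it was -0.06 ± 0.53 for Aldoc, 0.29 ± 0.35 for Slc1a2, -0.25 ± 0.51 for S100b, -0.36 ± 0.49 for Aldh1l1, -0.04 ± 0.37 for Aqp4, 0.07 ± 0.27 for Slc1a3, -0.45 ± 0.46 for Gja1 and -0.68 ± 0.43 for Gfap. None of these values was called. For HI over sham in KO the same fit gave -0.53 ± 0.41 for Slc1a2, -0.32 ± 0.43 for Aqp4, -0.05 ± 0.58 for S100b, -0.39 ± 0.61 for Aldoc, -0.54 ± 0.55 for Aldh1l1, 0.02 ± 0.31 for Slc1a3, 0.18 ± 0.52 for Gja1 and -0.48 ± 0.24 for Vim, with 0 of 9 called. In WT it gave -0.72 ± 0.35 for Slc1a2, 0.31 ± 0.38 for Aqp4, 0.68 ± 0.52 for S100b, 0.20 ± 0.53 for Aldoc, 0.47 ± 0.49 for Aldh1l1, 0.58 ± 0.27 for Slc1a3, 0.59 ± 0.46 for Gja1 and 0.53 ± 0.21 for Vim, with Gfap the 1 of 9 called.

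**Figure D2:**
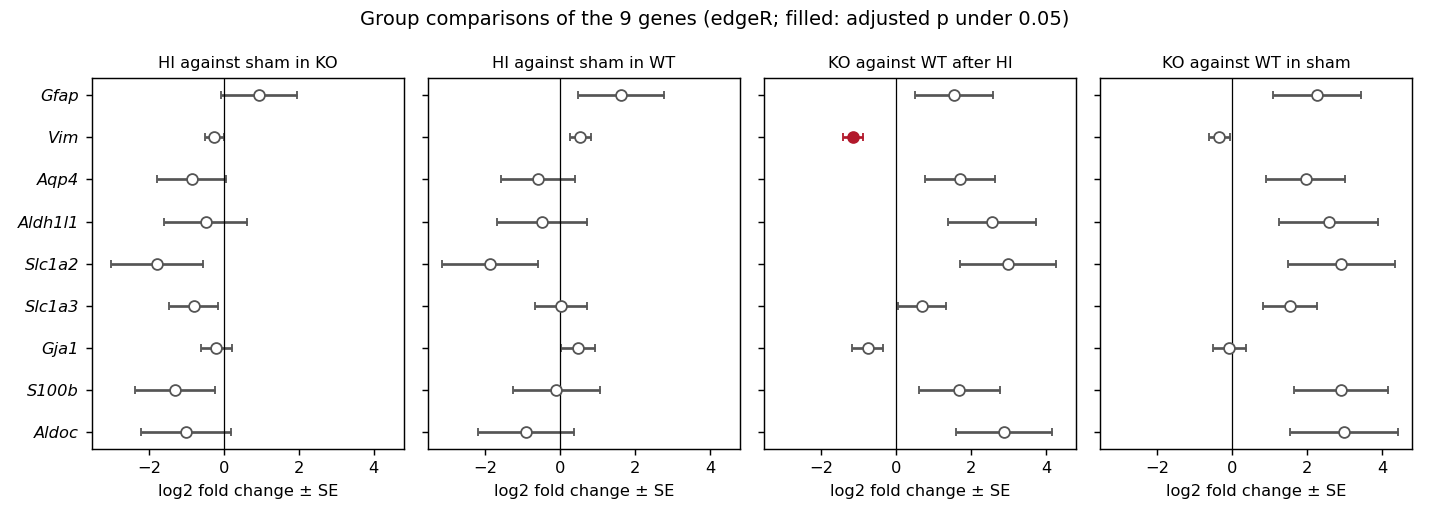
Log2 fold change with its standard error (edgeR, 1 fit over 15 libraries) for the 9 genes in HI against sham within KO and within WT and in KO against WT after HI and in sham. Only Vim in KO against WT after HI, at -1.15, is filled (adjusted p under 0.05); the errors of Aqp4, Aldh1l1, Slc1a2, S100b, Aldoc and Gfap are wide in every panel.

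Across libraries the 9 transcripts formed 1 tight block of 5, 2 looser partners and 2 genes outside it. Over the 15 libraries, Pearson's r of log2 CPM between any pair of Aqp4, Aldh1l1, Slc1a2, S100b and Aldoc was 0.93 to 0.99 (Spearman's rho 0.72 to 0.98). Leaving out, for each pair, the 2 libraries farthest from the median of the gene listed first above gave 0.80 to 0.97. Slc1a3 correlated with those 5 at 0.86 to 0.94 (0.58 to 0.81 with 2 libraries left out in this way), and Gfap at 0.65 to 0.83 (0.56 to 0.76). After removing the group means, Gfap correlated with them at 0.97 to 0.99. Vim ran opposite, at -0.80 to -0.70, and Gja1 bore little relation, at -0.19 to 0.05. With 2 libraries left out for each pair, Vim was at -0.65 to -0.48 and Gja1 at -0.54 to 0.07. These are descriptions with no test, because all genes of a library share its cell composition and depth and some libraries stand far from the rest.

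**Figure D3:**
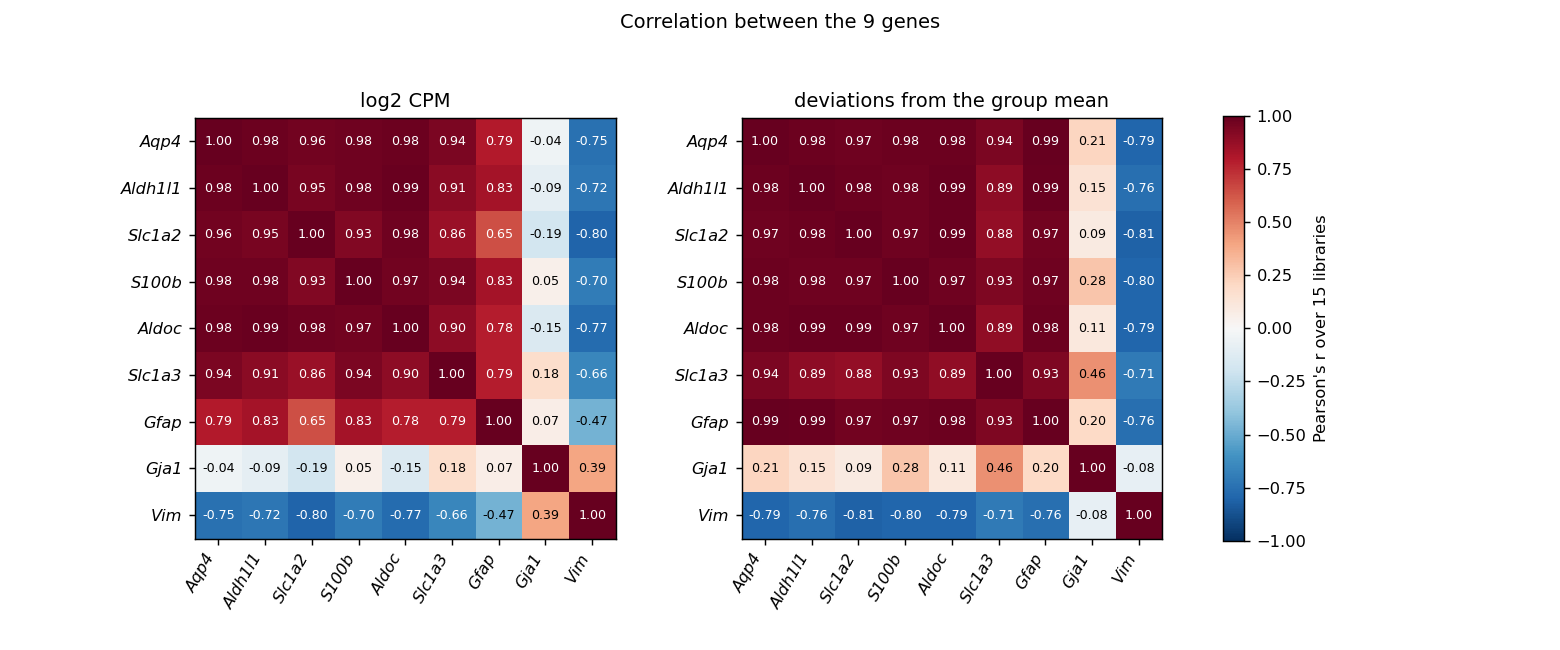
Pearson's r between the 9 genes over 15 libraries, for log2 CPM on the left and for deviations from each group's mean on the right. Gfap joins the block of Aqp4, Aldh1l1, Slc1a2, S100b and Aldoc more closely once group means are removed (0.97 to 0.99) than before (0.65 to 0.83), while Vim is negative against that block in both.

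The 5 libraries with the highest neuron markers were also the 5 highest for Aqp4, Aldh1l1, Slc1a2, S100b and Aldoc. They took 4 of the 5 highest places for Slc1a3, 3 for Gfap, 1 for Gja1 and 0 for Vim. Aqp4 was at 75.9 to 529 CPM in those 5 and at 17.3 to 55.1 CPM in the other 10, while Vim was at 628 to 1511 CPM in the 5 and at 1069 to 2514 CPM in the other 10. The summed level of the 14 neuron markers was 55.2 to 1510.1 CPM in KO HI, 76.5 to 2456 CPM in KO sham, 65.6 to 67.5 CPM in WT HI and 80.4 to 227 CPM in WT sham. That of 13 oligodendrocyte lineage markers was 349 to 2204 CPM in KO HI, 420 to 9645 CPM in KO sham, 509 to 598 CPM in WT HI and 712 to 1055 CPM in WT sham. Mog, a myelin protein that defines mature oligodendrocytes, was at or near 0 in WT HI, with 0.114 CPM at most. The part of neural tissue content in the spread of the astrocyte transcripts was not tested.

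The genes nearest to each member in pattern, by Pearson's r of log2 CPM over the same 15 libraries, are given for description only. Nearest to Aqp4 were Ngef, Pcdh10 and Ttyh1 (0.99 each), and nearest to Aldoc were Acsbg1, Mmd2 and Ttyh1 (0.996, 0.995 and 0.995). Slc1a2 was closest to Tmem229a, Elovl2 and Ntsr2, Aldh1l1 to Dbpht2, Adgrb2 and Npas3, and S100b to Gpld1, Pcyt1b and Pfn4, with r of 0.98 or more. Slc1a3 was closest to Nhlrc1, Kctd5 and Smpd3 (0.98, 0.97 and 0.97). Gfap was closest to Sh2d5, Bcat1 and Slc41a2 (0.94, 0.94 and 0.93), Gja1 to Dkk3, Nalcn and Egfr (0.95, 0.95 and 0.94), and Vim to Acsm3, Lmna and Emp1 (0.98, 0.98 and 0.96). Lmna encodes nuclear lamins, filament proteins of the nuclear envelope. No member was among the 3 nearest genes of another.

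Gfap was higher after HI relative to Aqp4, Aldh1l1, Slc1a2, S100b and Aldoc, in both genotypes. Counts of Gfap per count of Aqp4 were 4.95, 4.78, 7.18 and 3.95 in KO HI libraries 1 to 4, against 1.87, 1.78, 1.48 and 1.65 in KO sham libraries 1, 3, 4 and 6. In WT they were 8.21, 6.28, 6.96 and 6.89 in HI libraries 1, 2, 4 and 5, against 1.50, 1.46 and 1.63 in sham. Every HI library lay above every sham library, and the sham ratios were nearly the same in both genotypes although Aqp4 itself ranged 30.7-fold. The ratio averaged 5.22 ± 1.38 in KO HI and 1.69 ± 0.17 in KO sham (SD, n = 4 each), a 3.08-fold difference of means. In WT it averaged 7.08 ± 0.81 after HI and 1.53 ± 0.09 in sham (SD, n = 4 and 3), a 4.63-fold difference.

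Other denominators gave the same direction of means. Aqp4, Aldh1l1, Slc1a2, S100b and Aldoc correlated at 0.93 to 0.99 and their ratios share the Gfap counts, so they are not separate checks. Gfap per Aldh1l1 averaged 8.42 ± 3.25 in KO HI against 3.10 ± 0.707 in KO sham, and 13.9 ± 1.35 in WT HI against 3.43 ± 0.644 in WT sham. Gfap per Slc1a2 averaged 1.02 ± 0.369 in KO HI against 0.250 ± 0.146 in KO sham, and 2.64 ± 0.594 in WT HI against 0.251 ± 0.049 in WT sham. Over the 8 other members as denominators, HI lay wholly above sham for 5 in KO (Aqp4, Aldh1l1, Slc1a2, S100b and Aldoc) and for 7 in WT, with Vim the exception there. In KO the lowest HI ratio barely exceeded the highest sham ratio for Aldoc, at 1.14 against 1.12. These values were 4.60 against 4.04 for Aldh1l1, 0.542 against 0.447 for Slc1a2 and 15.6 against 12.2 for S100b. In WT, Gfap itself already lay wholly above sham, so the count there says little about the denominators. KO sham and WT sham overlapped with all 8. KO HI lay wholly below WT HI with 2, Slc1a2 and Aldoc, and overlapped it with the other 6. For none of these counts was the share over all genes as denominators computed. A ratio shows that 2 transcripts changed unequally, not that either stayed the same, and Slc1a2 per Aqp4 itself was 2.14 to 3.32 in WT HI against 5.01 to 7.29 in WT sham.

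**Figure D4:**
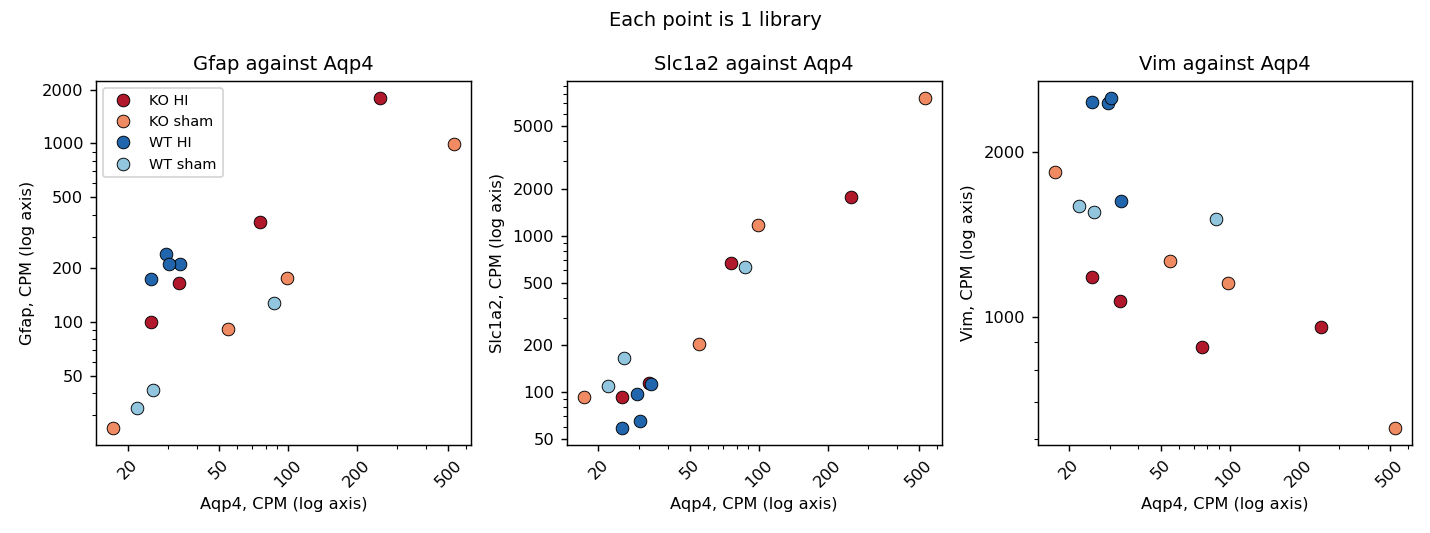
Level of Gfap, Slc1a2 and Vim against that of Aqp4 in CPM, log axes, 1 point per library coloured by group. For Gfap the 8 HI libraries lie above the line of the 7 sham libraries at any Aqp4 level, for Slc1a2 the WT HI libraries lie below the WT sham libraries (2.14 to 3.32 against 5.01 to 7.29 counts per count of Aqp4), and for Vim the level is lower where Aqp4 is high.

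The log2 CPM of Aqp4 was also used as an added term in the edgeR fit over all genes, an alternative chosen after seeing the data. This fit restates the ratio to Aqp4 in the same 15 libraries. Its p-values, ranks and calls are therefore descriptions and not separate support. Gfap was then higher after HI by 1.65 ± 0.13 log2 units in KO (edgeR adjusted p = 3.88e-05) and by 2.24 ± 0.14 in WT (edgeR adjusted p = 4.53e-06). It had the third smallest p of all 14853 genes in each genotype, where 18.9% of genes were called in KO and 6.62% in WT. KO over WT in sham was 0.01 ± 0.14, and after HI Gfap was lower in KO by this fit, at -0.58 ± 0.13 (edgeR adjusted p = 0.00861; 19.3% of genes called). The direction of the genotype difference after HI thus depends on the term, since it was 1.54 ± 1.03 without it. The difference of the HI responses was -0.59 ± 0.18 (edgeR adjusted p = 0.255; 0.0202% of genes called). Leaving out each library in turn kept the HI calls in 15 of 15 fits, with log2 fold changes of 1.49 to 1.70 in KO and 2.14 to 2.32 in WT.

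Other terms gave the same direction for HI. With the neuron markers in place of Aqp4, Gfap was higher by 1.51 ± 0.26 in KO (edgeR adjusted p = 0.00274; 19.6% of genes called) and by 2.74 ± 0.31 in WT (edgeR adjusted p = 4.55e-04; 8.83% called). Over 7 terms, namely Aqp4, Aldh1l1, Slc1a2, S100b, Aldoc, Slc1a3 or the neuron markers, Gfap was called higher after HI with 7 of 7 in both genotypes, at 1.39 to 1.93 in KO and 1.71 to 3.08 in WT. Of these terms Aqp4, Aldh1l1, Slc1a2, S100b and Aldoc correlated at 0.93 to 0.99, so the 7 are not separate checks. The share of all genes called was taken only for the Aqp4 and neuron terms. KO over WT after HI was between -0.94 and -0.09 and was called with 5 of 7, among them the neuron markers (-0.94 ± 0.28, edgeR adjusted p = 0.0335; 18.3% of genes called), not with S100b (-0.18) or Slc1a3 (-0.09). Leaving out the 5 libraries with high neuron markers instead gave 1.17 ± 0.49 in KO (edgeR adjusted p = 0.137; 16.8% called) and 2.49 ± 0.47 in WT (edgeR adjusted p = 0.0245; 5.13% called). In WT the call thus also appeared without a term once those libraries were left out, and in KO it did not. In KO that fit rests on HI libraries 1 and 4 and sham libraries 4 and 6 only.

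**Figure D5:**
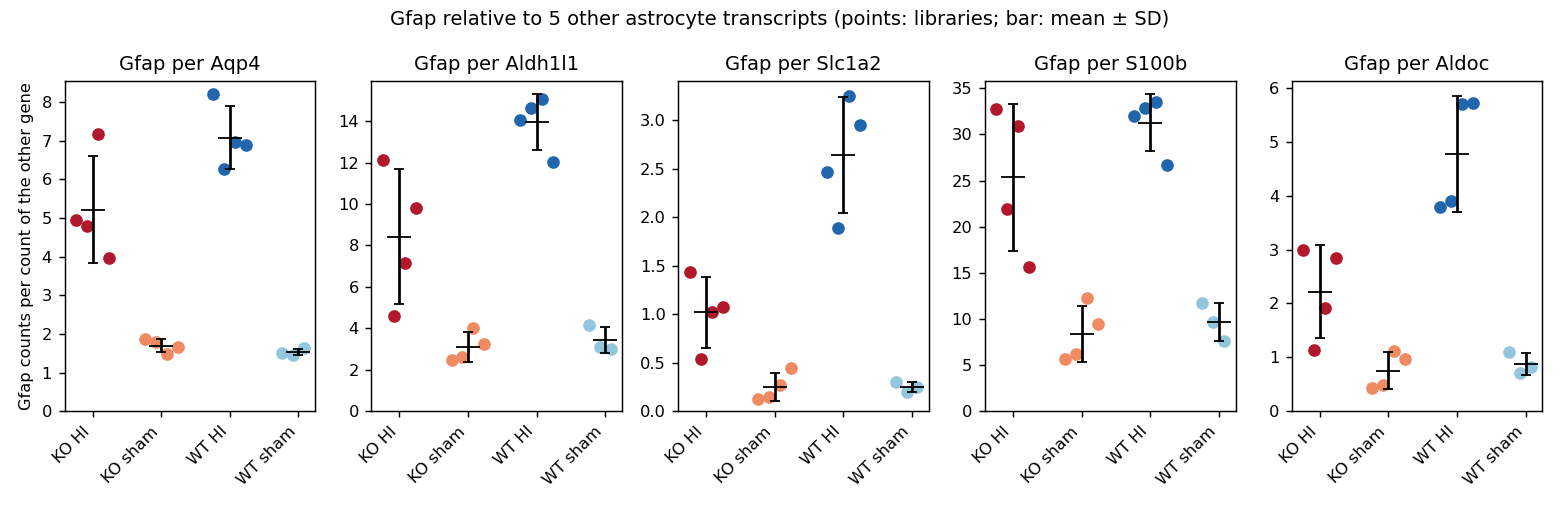
Gfap counts per count of Aqp4, Aldh1l1, Slc1a2, S100b and Aldoc in each library, by group, on linear axes from 0; points are libraries and bars the mean with SD. In all 5 panels the HI libraries lie above the sham libraries of the same genotype, with Gfap per Aqp4 averaging 5.22 in KO HI against 1.69 in KO sham and 7.08 in WT HI against 1.53 in WT sham. For Aldoc in KO the gap is narrow, at 1.14 in the lowest HI library against 1.12 in the highest sham library.

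Further genes of the same pathways were read from lists. Of 25 other astrocyte genes, among them glutamine synthetase (Glul) and the serine transporter Slc7a10, 0 were called in any of the 5 comparisons. KO over WT in sham was positive for 23 of 25, with a median of 1.80 against 0.05 for all tested genes. Their mean log2 CPM was 8.14, 6.35, 4.24 and 5.55 in KO sham libraries 1, 3, 4 and 6. In WT sham libraries 1, 2 and 3 it was 4.52, 5.94 and 4.99. KO sham 1 and 3 and WT sham 2 are among the 5 libraries with high neuron markers. Slc7a10 had a mean of 38.2 ± 42.1 CPM in KO HI, 49.9 ± 54.1 CPM in KO sham, 6.46 ± 5.09 CPM in WT HI and 14.2 ± 8.84 CPM in WT sham. Of 10 other filament genes, 3 were lower in KO than in WT after HI, where 6.46% of all genes were called lower: Des (desmin, the filament protein of muscle and pericytes) at -1.20 ± 0.31, Lmna at -0.95 ± 0.22 and Synm (synemin, a filament protein that pairs with vimentin and desmin) at -0.66 ± 0.15 (edgeR adjusted p = 0.0259, 0.0189 and 0.0168). Nes, nestin, was not called in any comparison. Of 6 other connexins, 3 were lower in the same comparison, again against 6.46% of all genes and beside the lower pericyte and endothelial markers given above, Gja4, Gja5 and Gjc1 at -1.34 ± 0.33, -1.50 ± 0.34 and -1.04 ± 0.32, all known from vessel walls (edgeR adjusted p = 0.0223, 0.0164 and 0.0490). The astrocyte connexin Gjb6 averaged 43.3 ± 42.6 CPM in KO HI against 72.7 ± 20.4 CPM in WT HI and was not called. Of 8 other genes of glutamate and glutamine transport and turnover, 0 were called in any comparison. Without the 5 libraries with high neuron markers, KO over WT after HI called the same 3 filament genes and the same 3 connexins lower. Also lower there were Atp1b2, 1 of 25 astrocyte genes, and Slc38a3 and Slc38a5, 2 of 8 glutamate and glutamine genes. In that comparison 23.5% of all genes were called in either direction. For HI over sham that fit called Nes lower in both genotypes, Synm, Gja4, Gjc1, Atp1b2, Fgfr3, Slc38a3 and Slc38a5 lower in KO, and Slc1a1 and Slc38a3 lower in WT. Aldoa was called higher after HI in KO. For HI over sham 16.8% of all genes were called in KO and 5.13% in WT.

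Genes known from the reactive astrocyte programme rose after HI in part. Of 11 genes shared by reactive states, 7 were called higher in KO and 6 in WT, and none lower, against 4.88% of all genes called higher in KO and 1.38% in WT. Lcn2, a secreted iron-carrier protein, was higher by 4.91 ± 0.44 in KO and by 6.22 ± 0.53 in WT, and Cd44, a hyaluronan receptor, by 1.53 ± 0.22 in KO and 1.89 ± 0.24 in WT (edgeR adjusted p = 2.36e-04, 1.25e-04, 0.00282 and 0.00224). Serpina3n, a secreted protease inhibitor, was higher by 2.91 ± 0.80 in KO and by 5.29 ± 1.04 in WT (edgeR adjusted p = 0.0470 and 0.0202). After HI, 4 of the 11 were lower in KO than in WT, against 6.46% of all genes: Timp1, a metalloproteinase inhibitor, at -1.21 ± 0.27, Osmr, the oncostatin M receptor, at -1.32 ± 0.30, and Hspb1 and Aspg at -0.89 ± 0.25 and -1.38 ± 0.41 (edgeR adjusted p = 0.0141, 0.0158, 0.0337 and 0.0442). Of 13 genes linked to reactive astrocytes after ischemia, 3 were higher after HI in each genotype, Ptgs2 and Tgm1 in both, Cd14 in KO and Stat3 in WT, and Emp1, Tm4sf1, Ptgs2 and Stat3 (4 of 13) were lower in KO than in WT after HI, again against 6.46% of all genes. Of 12 genes linked to inflammation, 11 were tested; Psmb8 was higher and Fbln5 lower after HI in KO, Fkbp5 was higher after HI in WT, and Psmb8 was higher in KO than in WT after HI. Without the 5 libraries with high neuron markers, 7 of the 11 shared genes were called higher after HI in each genotype, and 6 of 11 and 5 of 13 were lower in KO than in WT after HI. That fit called more of all genes, in either direction: 16.8% for HI over sham in KO and 5.13% in WT. For KO over WT after HI it called 23.5% of all genes. Most of these genes are also made by endothelial cells, pericytes or myeloid cells, so in these isolates their RNA cannot be assigned to astrocytes.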

How the data were processed

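RNA of PDGFRbeta-positive cells was sequenced in 15 libraries. The authors deposited 1 table of expected counts per gene, with no normalization; the unit was read from the values, 3.12% to 3.92% of which were not whole in a library. The submitters' processing notes list HISAT2 2.1.0, Bowtie2 2.4.4, Bowtie, RSEM 1.3.1, DESeq2 1.4.5 and mm39, and the role of each is not given in the sources used here. Of 65535 lines, 17892 held values and 47643 were blank, so a blank line does not show absence; 17862 lines matched a symbol. The reference used for names, transcript lengths and untranslated regions is GRCm38, an older build.

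Counts were rounded and fitted with edgeR 4.0.16 in R 4.3.3 (TMM, filterByExpr, glmQLFit and glmQLFTest, 4 group means). The 14853 genes kept were adjusted together (Benjamini-Hochberg) and called under 0.05; the biological coefficient of variation was 38.6%. Standard errors were derived from the F statistic, and log2 CPM used a prior count of 2. The fit was also run on simulated counts, drawn independently for each gene with the same dispersion for all genes. No simulated library stood apart in its cell content, so that run does not bear on libraries like those here. Alternatives were DESeq2 1.42.0, limma-voom 3.58.1, RLE scaling, no filter, a robust fit, 2 groups only, a replicate block, each library left out, the 5 libraries with high neuron markers left out and a neuron or Aqp4 term. Same-numbered libraries did not deviate together in all pairs (r -0.78 to 0.79 over 15 pairs), so numbers were not taken as pairing. No 2 libraries of a group agreed within sampling noise (lowest chi-square per degree of freedom 11.3).

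The 9 genes, the further lists and the tests were chosen with earlier results of these data known. All 9 genes are named; of each further list the called genes with the smallest p (up to 4), plus examples given as values, and for each member the 3 genes with the highest r, without provisional symbols. Slc7a10, Glul, Nes, Gjb6, Aldoa, Mog and the other examples not called were picked after their values were seen.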

Additional observations from a re-analysis of the deposited data

Results flagged for a closer look

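In groups of 4 libraries, 12 of the 27 sets of values of the 9 genes held 1 library far from its other 3 on the CPM scale. On log2 CPM, a scale added after seeing the data, 4 of 27 did: Vim, Aldh1l1 and S100b in WT HI and Slc1a3 in KO HI. Chance gives about 1 in 20 for normally distributed values, which CPM of this spread are not, so the number depends on the scale. KO sham 1 stood highest for 7 genes, with Gfap at 987 CPM, Aqp4 at 529 CPM, Aldh1l1 at 396 CPM, Slc1a2 at 7627 CPM, Slc1a3 at 1503 CPM, S100b at 174 CPM and Aldoc at 2259 CPM. KO HI 3 stood highest for Gfap at 1807 CPM and for Slc1a3 at 622 CPM. Both libraries are among the 5 with the highest neuron markers, and the genes share these libraries, so these outlying values are not independent. In WT HI, library 2 stood lowest for Vim at 1626 CPM. WT HI 1 stood highest for Aldh1l1 at 17.1 CPM and for S100b at 7.54 CPM, where the other 3 libraries lay close together. WT sham had 3 libraries and was not examined in this way.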

How the results depend on the processing

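Under 25 other settings, 1101 of 1116 log2 fold changes of the 9 genes stayed on their side of the threshold, with the same direction where called. Of those called in either fit, 3 turned round: Aldh1l1 for HI over sham in WT with the neuron term, to 0.85 ± 0.20 (edgeR adjusted p = 0.0222), and Gfap for KO over WT after HI with the neuron term, to -0.94, and with the Aqp4 term, to -0.58. Values called in neither fit could change sign and still count among the 1101. Without the 5 libraries with high neuron markers, KO over WT after HI went from 1.54 to -0.68 for Gfap and from 2.56 to -0.36 for Aldh1l1. For S100b it went from 1.68 to -0.25 and for Aldoc from 2.87 to -0.06. Members called for KO over WT after HI numbered 2 with DESeq2 (Slc1a2 higher, Vim lower), 2 with the neuron term and 2 with the Aqp4 term (Gfap and Vim lower), 0 with the replicate block and 0 to 2 with 1 library left out. For HI over sham in WT they numbered 1 with only the 2 groups fitted, 1 without the 5 libraries with high neuron markers, 1 with the Aqp4 term (Gfap each time) and 2 with the neuron term (Aldh1l1 and Gfap). For HI over sham in KO they numbered 1 with the neuron term and 1 with the Aqp4 term, Gfap both times. The Aqp4 term was added after seeing the data; the cause of these shifts was not tested. With the replicate block Vim for KO over WT after HI was -1.08 (edgeR adjusted p = 0.0908), and calls over all genes in that comparison numbered 21 with the block, against 1844 without it; 3 of 6 samples correlated best with their own number there and 2 of 6 for HI over sham in KO. Over all settings the calls among all genes ran from 16 to 2909 for HI over sham in KO, 16 to 2443 in WT, 21 to 3605 for KO over WT after HI, 0 to 32 in sham and 0 to 22 for the difference of responses. Lists moved by over 1.5 times in 287 of 2108 counts. With standard errors of about 1 log2 unit, a 2-fold change of most of the 9 genes was not detectable in the fit without a term.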
